A study of Oryza sativa with 6 samples.

Results

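The transcript levels of rice seedlings labelled as knock-down and as over-expression of OsRDR3 were compared directly with each other, at the loci for which the authors' deposited tables list both groups. Plants were 5-week-old seedlings of the indica cultivar Pusa Basmati 1, grouped by transgenic line into knock-down (KD), over-expression (OE) and wild type (WT), with 2 libraries in each group. The labels name neither the promoter of the transgenes nor the number of independent transgenic events, and they do not say whether the 2 libraries of a group came from separate plants. The authors' tables list 4341 loci for knock-down against WT and 4295 loci for over-expression against WT, each with 1 pooled FPKM value per group (fragments scaled by transcript length and by library size). A locus was taken where the same merged transcript identifier stood in both tables, which gave 1714 loci out of 6922 in either table. Every listed locus has a p-value of at most 0.05 against WT in its own table, so these 1714 are the loci that both tables list as different from WT and not all loci of the genome.

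RNA-dependent RNA polymerases copy single-stranded RNA into double-stranded RNA. Dicer-like ribonucleases cut this double strand into small RNAs, and Argonaute proteins use the small RNAs to find and silence matching transcripts or DNA. Plants carry several polymerases of this family, some of which feed the silencing of transposons and viruses. Any transcript of a seedling can also change in bulk RNA because the share of a cell type changes, and fewer cells of a type and less RNA per cell cannot be told apart in these data.

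The locus named as an RNA-dependent RNA polymerase, BGIOSGA002194 on chromosome 1 (5687015 to 5701037), had 69.5 FPKM in the libraries labelled KD, 58.7 FPKM in OE and 0.190 and 0.198 FPKM in WT in the knock-down and over-expression tables. It was thus far above WT under both labels and 1.24-fold higher in the KD-labelled libraries than in OE. In the authors' deposited tables it rose against WT with a log2 fold change of 8.52 (q = 0.000868) under the KD label and of 8.21 (q = 0.00105) in OE. Neither table links the locus to OsRDR3 by name. If it is the targeted gene, its FPKM was not lowered under the KD label. The FPKM values do not show whether the reads come from the gene itself or from a transgene, and this was not tested. The group is therefore called KD-labelled here, and no direction below is read as an effect of lost polymerase.

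The comparison asked which transcripts differ between the transgenic groups. For each locus the FPKM of either group was divided by the WT FPKM of its own table, and the log2 of the KD-labelled ratio over the OE ratio was taken, so that a negative value means lower in the KD-labelled libraries. The WT value of a locus in the knock-down table was 0.959 times that in the over-expression table at the median, and between 0.955 and 0.963 times at every locus, so the division amounts to 1 scaling factor. WT values below are those of the knock-down table unless both are given. Each group is 1 pooled value, so no spread between libraries and no test of KD-labelled against OE can be given, and the q-values printed are those of the authors' tests of each group against WT. The WT libraries are shared by both tables.

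Across the 1714 loci the log2 ratio had a median of -0.33, with quartiles at -0.998 and 0.01 and a range of -5.33 to 4.86. At least 2-fold lower in the KD-labelled libraries were 427 loci (24.9%), and at least 2-fold higher were 55 (3.21%). The remaining 1232 loci lay within 2-fold. At a 4-fold threshold 110 loci were lower and 10 higher. When the log2 ratios were centred on their median, 268 loci were lower and 91 higher, so the share of lower loci among those 2-fold apart was 88.6% as measured and 74.7% after centring. The group differences below therefore stand against an offset of these listed loci toward lower values under the KD label. Of the 1714 loci, 1265 were below 0 at any size. As the loci were listed for differing from WT, their median of -0.33 marks no level of no change between the groups. In the gene lists, counts of lower and higher loci are counts past 2-fold unless another size is stated, and the shares over all loci to read them against are 24.9% lower and 3.21% higher.

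**Figure D1:**
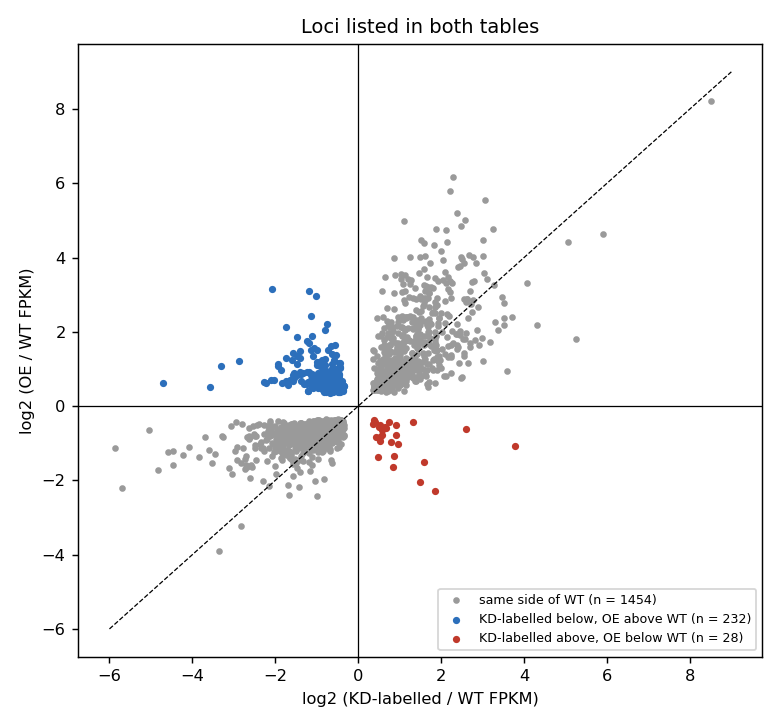
Each point is 1 of the 1714 loci, with the log2 of KD-labelled over WT FPKM on the horizontal axis and the log2 of OE over WT FPKM on the vertical axis, from the authors' deposited tables. The dashed line marks equal change, blue points are the 232 loci below WT under the KD label and above it in OE, red points are the 28 loci with the opposite pattern, and the other 1454 are grey.

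**Figure D2:**
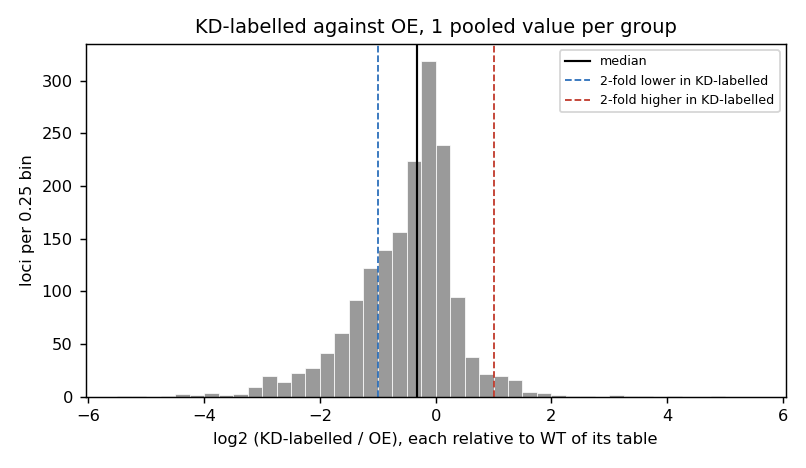
The histogram counts loci by the log2 of KD-labelled over OE, both relative to WT. The solid line is the median of -0.33 and the dashed lines mark 2-fold. The left side holds the 427 loci that were 2-fold lower and the right side the 55 that were higher.

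Loci on opposite sides of WT differ between the groups in direction. Among the common loci the smallest absolute log2 fold change against WT was 0.34 under the KD label and 0.36 in OE. A gap in size between the groups at opposite-side loci therefore follows from the listing and is not a separate result. The KD-labelled libraries were below WT and OE above it at 232 loci (13.5%), and the KD-labelled libraries were above WT and OE below it at 28 loci (1.63%). The counts depend on the zero point taken for each table. Over all loci of a table, the median log2 fold change against WT was -0.58 for the KD-labelled libraries and 0.67 for OE, and after each table was centred on its own median the counts were 93 and 313 in the same order of patterns. As the tables list only loci with p of at most 0.05, these medians follow the balance of listed rises and falls and mark no level of no change, so such a shift moves the counts by construction. With the authors' q under 0.05 in both tables, as held for 682 loci (39.8%), 66 loci were below WT in the KD-labelled libraries and above it in OE (3.85%), and 8 had the opposite pattern (0.467%). At least 2-fold away from WT in both groups were 24 and 4 loci. Of the 66 loci, 25 carry a symbol or a protein name, and of the 8 loci 0 do.

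**Figure D3:**
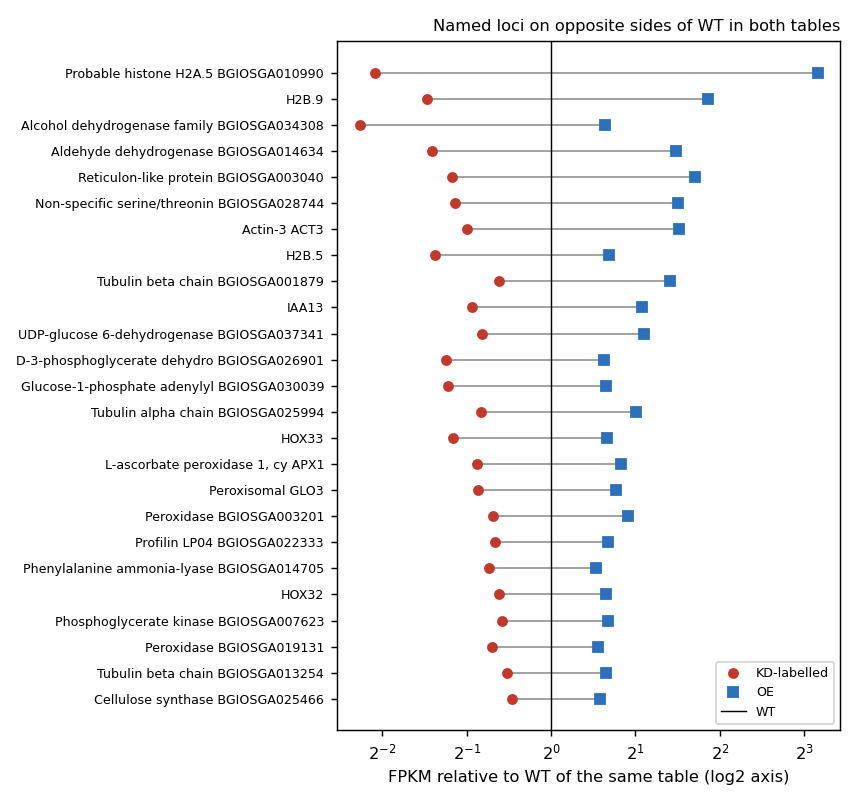
The 25 loci with a symbol or protein name that the authors' deposited tables place below WT in the KD-labelled libraries (circles) and above WT in OE (squares), each with q under 0.05. The horizontal axis is FPKM relative to the WT of the same table on a log2 axis, and the loci run from the histone H2A.5 at the top, with a log2 ratio of -5.24, to the cellulose synthase at the bottom, with -1.04.

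The RNA silencing list, taken from Gene Ontology (GO) terms and protein names, had 5 loci in both tables and 0 of them were 2-fold apart. Besides the polymerase, BGIOSGA010357, annotated with ribonuclease III activity and double-stranded RNA binding as Dicer-like enzymes are, had 4.99 FPKM in the KD-labelled libraries, 3.16 FPKM in OE and 1.75 FPKM in WT. It rose in both of the authors' deposited tables (q = 0.000868 and q = 0.0102), and was 1.64-fold higher under the KD label than in OE. A pair of loci annotated with small interfering RNA binding had the reverse order. BGIOSGA005301 had 3.56 FPKM in KD-labelled, 7.10 FPKM in OE and 4.70 FPKM in WT libraries, and BGIOSGA014534 had 4.64, 8.56 and 6.29 FPKM in the same order of groups. Their log2 ratios of -0.94 and -0.82 both lie inside 2-fold. In the authors' deposited tables, BGIOSGA005301 had q = 0.178 under the KD label and q = 0.0484 in OE. For BGIOSGA014534 these were q = 0.110 and q = 0.166. The fifth, BGIOSGA002561, a sterol isomerase by its GO terms that is also annotated with regulation of silencing by miRNA, was equal between the groups, at 6.91 FPKM in KD-labelled and 7.23 FPKM in OE libraries and 3.93 FPKM in WT.

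Histones and other nucleosome proteins, which package DNA and whose core members are made mostly while DNA is copied, were lower in the KD-labelled libraries at all 7 loci of their list. At least 2-fold lower were 5 of the 7, with a median log2 ratio of -1.52 beside -0.33 over all 1714 loci. The largest gap was at BGIOSGA010990 on chromosome 3 (10239298 to 10239879), named probable histone H2A.5, with 2.02 FPKM in KD-labelled libraries, 79.5 FPKM in OE and 8.56 and 8.91 FPKM in WT. It was 37.8-fold higher in OE, and in the authors' deposited tables it fell under the KD label (q = 0.0248) and rose in OE (q = 0.00105). The locus also spans several gene identifiers, so the assignment of its reads is uncertain. Histone H2B.9 on chromosome 5 (29961219 to 29961678) had 3.54 FPKM in KD-labelled, 37.2 FPKM in OE and 9.80 FPKM in WT libraries, a log2 ratio of -3.33. H2B.5 had 8.01, 34.8 and 20.8 FPKM in KD-labelled, OE and WT libraries, with q = 0.00228 and q = 0.0475 in the authors' deposited tables. Thus H2B.9 and H2B.5 also fell under the KD label and rose in OE, H2B.9 with q = 0.0342 and q = 0.00105 in the authors' deposited tables. BGIOSGA025281, annotated with nucleosome assembly, had 9.95 FPKM in KD-labelled, 29.7 FPKM in OE and 19.6 FPKM in WT libraries. Histone H3.3 (BGIOSGA012789), the variant that is placed outside replication, had 170 FPKM in KD-labelled, 342 FPKM in OE and 233 FPKM in WT libraries, which is inside 2-fold at a log2 ratio of -0.95. BGIOSGA016012, also of nucleosome assembly, was the exception in position, with 35.7 and 70.3 FPKM in KD-labelled and OE libraries and 100 FPKM in WT, so it was below WT in both groups. Histone copies are near-identical in sequence, and reads shared among them may be split in ways the tables do not show.

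Genes annotated with DNA replication were 2-fold lower at 2 of 7 loci (28.6%), near the share of all loci, and their median of -0.11 lay above that of all loci at -0.33. BGIOSGA027902, annotated with DNA polymerase activity, had 0.717 FPKM in KD-labelled, 4.62 FPKM in OE and 1.49 FPKM in WT libraries, and it fell and rose against WT in the authors' deposited tables (q = 0.0233 and q = 0.00105). A DNA helicase of the MCM complex that unwinds replication origins, BGIOSGA003718, had 0.227, 1.18 and 0.602 FPKM in KD-labelled, OE and WT libraries, but neither table gave q under 0.05. In the cell division list 2 of 12 loci were 2-fold lower and 0 higher, with a median of -0.31, close to that of all loci.

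Tubulins, the subunits of microtubules, were at least 2-fold lower in the KD-labelled libraries at all 5 loci named as alpha or beta chains, with a median log2 ratio of -1.84. Beta chain BGIOSGA011667 had 1.35 FPKM in KD-labelled, 10.05 FPKM in OE and 2.34 FPKM in WT libraries. Beta chain BGIOSGA001879 had 19.4 FPKM in KD-labelled, 83.0 FPKM in OE and 29.9 FPKM in WT libraries. Alpha chain BGIOSGA025994 had 43.8 FPKM in KD-labelled, 163 FPKM in OE and 78.0 FPKM in WT libraries. Of these, BGIOSGA001879 and BGIOSGA025994 fell under the KD label (q = 0.00565 and q = 0.000868) and rose in OE (q = 0.00105 for each) in the authors' deposited tables. BGIOSGA013254 had 15.2, 35.7 and 21.8 FPKM in KD-labelled, OE and WT libraries and had the same pair of directions. BGIOSGA007615 differed, being above WT in both groups, with 51.7 FPKM in KD-labelled, 110 FPKM in OE and 33.7 FPKM in WT libraries. Tubulin copies are also alike in sequence, and reads may be shared among them.

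The wider microtubule list, which adds motors and associated proteins, had 6 of 17 loci 2-fold lower and 0 higher, with a median of -0.14, and 5 of the 6 were the tubulin chains. Among the other members, BGIOSGA012117, annotated with microtubule binding, had 5.54 FPKM in KD-labelled, 17.6 FPKM in OE and 12.7 FPKM in WT libraries. Actin was lower in the KD-labelled libraries too. ACT3, a subunit of actin filaments, had 5.41 FPKM in KD-labelled, 32.4 FPKM in OE and 10.8 FPKM in WT libraries, a 5.74-fold gap, and it fell and rose against WT in the authors' deposited tables (q = 0.000868 and q = 0.00105). Profilin (BGIOSGA022333), which binds actin monomers, had 36.2, 95.3 and 57.2 FPKM in KD-labelled, OE and WT libraries. A reticulon-like protein of the family that shapes the endoplasmic reticulum, BGIOSGA003040, had 2.40 FPKM in KD-labelled, 18.4 FPKM in OE and 5.44 FPKM in WT libraries. By contrast BGIOSGA020267, annotated with the myosin complex that moves along actin, was higher in the KD-labelled libraries at 1.999 FPKM, with 0.827 FPKM in OE and 1.35 FPKM in WT. ACT3, the profilin and the myosin locus were chosen after their values were seen.

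Loci of the cell wall list were at least 2-fold lower in the KD-labelled libraries at 33 of 99 (33.3%, beside 24.9% of all loci). At least 2-fold higher was 1, and the median log2 ratio was -0.64. The list is not separate from those above, as its lowest ratio, -2.84, is that of the tubulin beta chain BGIOSGA011667. Of the 99, 26 were below WT under the KD label and above it in OE, and 2 had the opposite pattern, beside 13.5% and 1.63% of all loci. Cellulose synthases, the enzymes that spin cellulose at the plasma membrane, were on opposite sides of WT at all 3 loci. BGIOSGA025466 had 12.0 FPKM in KD-labelled, 25.8 FPKM in OE and 16.6 FPKM in WT libraries, and it fell and rose in the authors' deposited tables (q = 0.0470 and q = 0.0220). BGIOSGA033103 had 14.1, 27.8 and 18.8 FPKM and BGIOSGA024623 had 53.2, 99.6 and 70.9 FPKM in KD-labelled, OE and WT libraries, both inside 2-fold. Under the KD label and in OE, q was 0.0999 and 0.0475 for BGIOSGA033103, and 0.126 and 0.189 for BGIOSGA024623. The cellulose synthases were chosen after their values were seen. A pair of UDP-glucose 6-dehydrogenases, which make the sugar nucleotide used for pectin and hemicellulose, had the same order. BGIOSGA037341 had 11.4 FPKM in KD-labelled, 44.8 FPKM in OE and 20.1 FPKM in WT libraries, and it fell and rose with q = 0.000868 and q = 0.00105 in the authors' deposited tables. BGIOSGA013592 had 54.9, 135 and 90.4 FPKM in KD-labelled, OE and WT libraries, with q = 0.0579 in OE. Phenylalanine ammonia-lyase (BGIOSGA014705), which opens the pathway to lignin, had 10.7, 26.9 and 17.8 FPKM in the same order, a log2 ratio of -1.27.

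Wall-modifying enzymes were less uniform. Of 6 xyloglucan endotransglucosylase/hydrolases, which cut and rejoin the xyloglucan that tethers cellulose, 3 were 2-fold lower in the KD-labelled libraries and 0 higher. BGIOSGA011601 had 2.64 FPKM in KD-labelled, 13.0 FPKM in OE and 4.37 FPKM in WT libraries, while BGIOSGA028246 was nearly equal between the groups at 185 and 207 FPKM in KD-labelled and OE libraries, above 109 FPKM in WT. BGIOSGA014404 lay below WT in both groups, at 0.346 and 1.44 FPKM in KD-labelled and OE libraries and 3.97 FPKM in WT. The wider list of enzymes that hydrolyse O-glycosyl bonds had 14 of 53 loci 2-fold lower and 2 higher, with a median of -0.29, close to that of all loci. Glycosyltransferases by protein name were lower by 2-fold at 6 of 9 loci. Purple acid phosphatases, which release phosphate outside the cell, were 2-fold lower at 3 of 5 loci, and BGIOSGA035759 had 8.40 FPKM in KD-labelled, 50.3 FPKM in OE and 5.68 FPKM in WT libraries. A beta-hexosaminidase, BGIOSGA019873, had 1.46 FPKM in KD-labelled and 8.64 FPKM in OE libraries, both above 0.177 FPKM in WT.

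The GO term for oxidoreductases that act on CH-OH groups with NAD or NADP had 7 of 11 loci 2-fold lower in the KD-labelled libraries and a median of -1.49, the lowest of the 188 terms with at least 10 loci. Its members include the UDP-glucose 6-dehydrogenases above. Phosphoglycerate dehydrogenase (BGIOSGA026901), the first step of the phosphorylated route to serine, had 5.45 FPKM in KD-labelled, 20.8 FPKM in OE and 12.9 FPKM in WT libraries. A reductase of the mevalonate pathway in the same term, BGIOSGA031013, was above WT in both groups, with 4.36 FPKM in KD-labelled, 12.8 FPKM in OE and 1.43 FPKM in WT libraries. Other enzymes of metabolism that do not carry this term also differed. Alcohol dehydrogenase BGIOSGA034308, named family 3 and located on chromosome 11 (5258489 to 5262386), had 7.28 FPKM in KD-labelled, 56.9 FPKM in OE and 35.1 FPKM in WT libraries. It was higher in OE than under the KD label, with a log2 ratio of -2.91, and fell and rose against WT in the authors' deposited tables (q = 0.000868 and q = 0.00614). Aldehyde dehydrogenase ALDH1 (BGIOSGA014634), which oxidises aldehydes to acids, had 0.809 FPKM in KD-labelled, 6.27 FPKM in OE and 2.15 FPKM in WT libraries. These loci and BGIOSGA026901 were each below WT under the KD label and above it in OE with q under 0.05 in both of the authors' deposited tables. Other families were closer to all loci. Glyceraldehyde-3-phosphate dehydrogenases and glycerol-3-phosphate dehydrogenases were 2-fold lower at 1 of 3 loci each, with medians of -0.63 and -0.61. Phosphoglycerate kinases, enzymes of glycolysis and carbon fixation, were lower at 1 of 4 loci with a median of -0.30, and that locus, BGIOSGA007623, had 23.1, 57.2 and 34.5 FPKM in KD-labelled, OE and WT libraries.

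**Figure D4:**
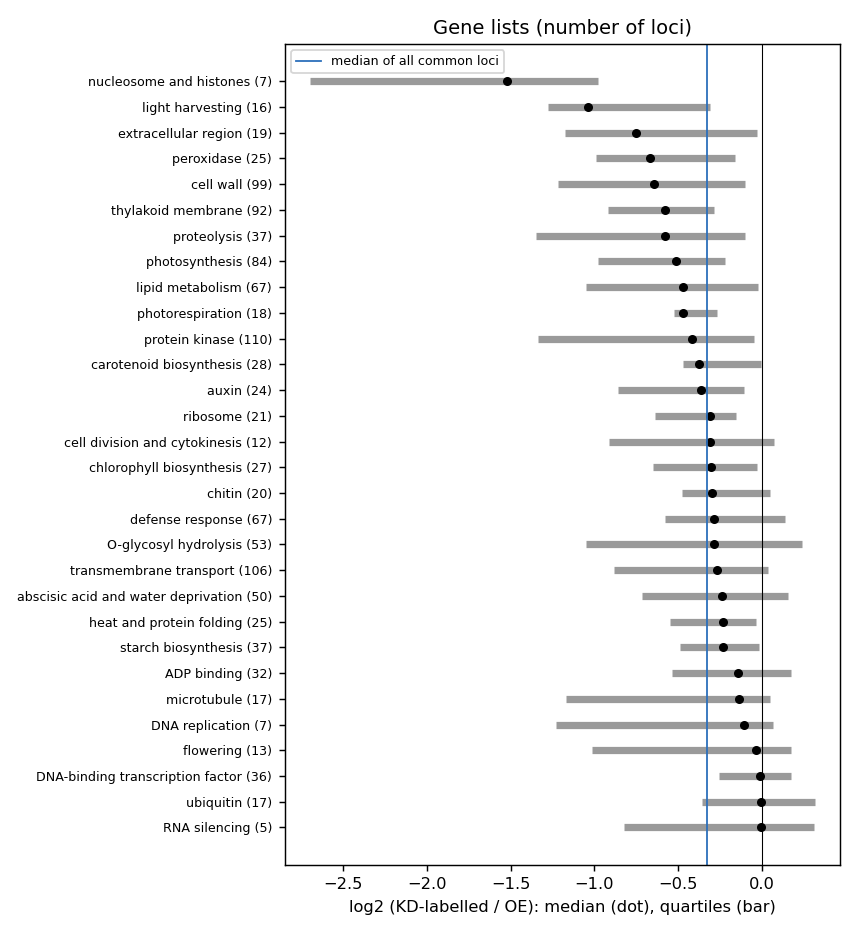
For each gene list with at least 5 loci, the dot is the median and the bar spans the quartiles of the log2 of KD-labelled over OE, with the number of loci in parentheses. The blue line is the median of all 1714 loci at -0.33, and the nucleosome and light harvesting lists lie farthest to its left with medians of -1.52 and -1.04.

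Thylakoid genes lay below WT in both groups, and their median was lower in the KD-labelled libraries than in OE. The thylakoid membrane list had 92 loci, all of them below WT under the KD label and 91 in OE, with a median log2 fold change against WT of -1.20 in KD-labelled libraries and of -0.62 in OE. Relative to OE, 84 of the 92 were lower in the KD-labelled libraries, beside 1265 of 1714 among all loci, with a median of -0.58. By at least 2-fold 21 were lower (22.8%, slightly under the 24.9% of all loci) and 0 higher. Centring on the median of all loci takes 0.33 off this difference. Light harvesting, the step in which chlorophyll-binding antenna proteins gather photons, had 9 of 16 loci 2-fold lower (56.2%) and a median of -1.04. Of the 10 loci named chlorophyll a-b binding protein, the antenna itself, 7 were 2-fold lower. BGIOSGA004351 had 182 FPKM in KD-labelled, 490 FPKM in OE and 1031 FPKM in WT libraries. BGIOSGA026003 had 92.3 FPKM in KD-labelled, 260 FPKM in OE and 421 FPKM in WT libraries. Both fell in each of the authors' deposited tables, with q = 0.000868 under the KD label and q = 0.00348 and q = 0.00846 in OE. Of the 10 loci of that name, 9 had q under 0.05 under the KD label but only 4 in OE. At the other end BGIOSGA026930 had 14.9, 20.8 and 32.4 FPKM and BGIOSGA005558 had 3.95, 4.32 and 7.03 FPKM in KD-labelled, OE and WT libraries, so these antenna loci lay closer together in the KD-labelled and OE libraries. Antenna genes have close copies, and reads may be shared among them.

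Photosystem I, the complex that reduces ferredoxin, had 14 of its 18 loci (77.8%) 2-fold lower in the KD-labelled libraries and a median of -1.11, and photosystem II, which splits water, had 9 of 20. These counts by GO term are not separate from those of the antenna. The highest ratio under photosystem II, -0.07, is that of the antenna locus BGIOSGA005558. PSAH, a small subunit of photosystem I, had 137 FPKM in KD-labelled, 292 FPKM in OE and 490 FPKM in WT libraries, and it fell in both of the authors' deposited tables (q = 0.000868 and q = 0.00105). BGIOSGA037113, annotated with photosystem I, had 46.1 FPKM in KD-labelled, 151 FPKM in OE and 253 FPKM in WT libraries. The photosystem I assembly protein Ycf4, a gene of the plastid genome in plants, was ordered otherwise. Its locus BGIOSGA039356, on an unplaced scaffold, had 35.5 FPKM in KD-labelled, 21.5 FPKM in OE and 56.1 FPKM in WT libraries. The one thylakoid locus on opposite sides of WT was BGIOSGA025148, annotated with the oxygen-evolving part of photosystem II, with 166 FPKM in KD-labelled, 881 FPKM in OE and 520 FPKM in WT libraries. The authors' deposited tables gave it q = 0.000868 and q = 0.00614.

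**Figure D5:**
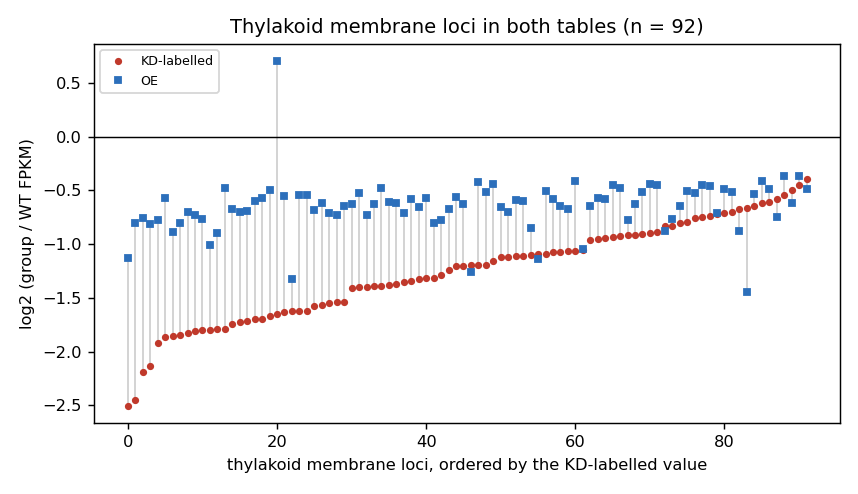
The 92 thylakoid membrane loci, ordered along the horizontal axis by their KD-labelled value, with the log2 of KD-labelled over WT FPKM (circles) and of OE over WT FPKM (squares). Grey lines join the values of a locus, all circles lie below 0, and the single square above 0 is BGIOSGA025148.

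Other chloroplast functions differed less between the groups. Loci annotated with thylakoid membrane organization were 2-fold lower at 1 of 44, with a median of -0.17, and those annotated with transcription from a plastid promoter at 0 of 16. Chlorophyll biosynthesis had 3 of 27 loci 2-fold lower and a median of -0.30. Glutamyl-tRNA reductase (BGIOSGA031606), the first committed enzyme of that pathway, had 16.3 FPKM in KD-labelled, 60.0 FPKM in OE and 101 FPKM in WT libraries, a log2 ratio of -1.82. CHLH, a subunit of the magnesium chelatase, had 78.8, 137 and 244 FPKM in KD-labelled, OE and WT libraries, with q = 0.106 in OE. The carotenoid list had 1 of 28 loci 2-fold lower. The starch list had 2 of 37 2-fold lower, of which AGPsma (BGIOSGA030039), a subunit of the enzyme that makes ADP-glucose, was on opposite sides of WT with 2.02 FPKM in KD-labelled, 7.70 FPKM in OE and 4.71 FPKM in WT libraries. RBCS, the small subunit of the carbon-fixing enzyme Rubisco, had 1193 FPKM in KD-labelled, 2432 FPKM in OE and 4307 FPKM in WT libraries, just inside 2-fold at -0.97. Its fall in OE had q = 0.189. Over the broad term chloroplast, 39 of 263 loci were 2-fold lower and 3 higher, with a median of -0.30, which is close to all loci.

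Protein kinases, which phosphorylate other proteins, were 2-fold lower in the KD-labelled libraries at 38 of 110 loci (34.5%, beside 24.9% of all loci) and 2-fold higher at 5 (4.55%, beside 3.21%), with a median of -0.42. BGIOSGA028744, named a serine/threonine kinase, had 1.51 FPKM in KD-labelled, 9.79 FPKM in OE and 3.32 FPKM in WT libraries, and it fell and rose in the authors' deposited tables (q = 0.0128 and q = 0.00105). BGIOSGA028289, a membrane kinase chosen after its values were seen, had 0.174 FPKM in KD-labelled and 4.88 FPKM in OE libraries, both below 10.2 FPKM in WT. BGIOSGA034624 went the other way, with 27.7 FPKM in KD-labelled, 11.9 FPKM in OE and 6.57 FPKM in WT libraries. Auxin genes were 2-fold lower at 4 of 24 loci (16.7%), with a median of -0.36, near that of all loci. IAA13, a repressor of auxin response, had 8.04 FPKM in KD-labelled, 33.7 FPKM in OE and 15.3 FPKM in WT libraries, with q = 0.00616 and q = 0.00105 in the authors' deposited tables. Proteolysis genes were 2-fold lower at 12 of 37 loci (32.4%) and 2-fold higher at 0, with a median of -0.58, and the ubiquitin list had 1 of 17 loci 2-fold lower and a median of -0.01.

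The list annotated with sequence-specific transcription factor activity was nearly equal between the groups, with a median log2 ratio of -0.01. In it 3 of 36 loci were 2-fold lower and 0 higher. Its range of -1.83 to 0.80 leaves out IAA13 above and SNAC1 below, so it does not hold every transcription factor. The GO term transcription, DNA-templated had 5 of 32 loci 2-fold lower and 5 higher. Of 3 homeobox-leucine zipper factors, 2 were 2-fold lower. HOX33 had 1.29 FPKM in KD-labelled, 4.78 FPKM in OE and 2.88 FPKM in WT libraries, and HOX32 had 2.89, 7.24 and 4.41 FPKM in the same order of groups. Both fell and rose against WT with q under 0.05 in each of the authors' deposited tables. The third, HOX15, was equal between the groups and below WT in both, with 6.43 FPKM in KD-labelled, 6.52 FPKM in OE and 10.8 FPKM in WT libraries. The WRKY factors of defence, 4 loci, had a median of 0.07 and 0 past 2-fold. WRKY71 was the highest of these relative to OE, with 9.50 FPKM in KD-labelled, 5.79 FPKM in OE and 1.60 FPKM in WT libraries, and it rose in both of the authors' deposited tables (q = 0.000868 and q = 0.00105). The defence response list had 7 of 67 loci 2-fold lower and 3 higher. The chitin list had 1 of 20 loci 2-fold lower, and its chitinase Cht4 (BGIOSGA014808), which cuts fungal cell walls, was slightly higher under the KD label with 20.9, 14.6 and 6.39 FPKM in KD-labelled, OE and WT libraries.

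Peroxidases, heme enzymes that use hydrogen peroxide, went both ways. Of 15 loci with that protein name, 5 were 2-fold lower in the KD-labelled libraries and 2 higher. Most lay above WT in both groups, 10 of 15 under the KD label and 14 in OE. Their median log2 fold changes against WT were 0.98 and 1.60. Only 2 of the 15 were on opposite sides of WT with q under 0.05 in both tables. These were BGIOSGA003201 and BGIOSGA019131, chosen after their values were seen. BGIOSGA003201 had 5.40 FPKM in KD-labelled, 17.2 FPKM in OE and 8.73 FPKM in WT libraries. BGIOSGA019131 had 27.9 FPKM in KD-labelled, 69.0 FPKM in OE and 45.2 FPKM in WT libraries. Cytosolic ascorbate peroxidase APX1, which removes hydrogen peroxide, had 10.1, 34.5 and 18.6 FPKM in KD-labelled, OE and WT libraries, and all 3 of these loci fell and rose against WT with q under 0.05 in each of the authors' deposited tables. In contrast BGIOSGA021076 on chromosome 6 (21416165 to 21417353) had 17.1 FPKM in KD-labelled, 1.65 FPKM in OE and 0.451 FPKM in WT libraries, a 10.8-fold excess under the KD label. BGIOSGA014040 had 21.8 FPKM in KD-labelled, 3.64 FPKM in OE and 1.80 FPKM in WT libraries. For this pair the authors' deposited tables gave q = 0.000868 under the KD label, and q = 0.102 and q = 0.101 in OE.

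The 55 loci that were 2-fold higher in the KD-labelled libraries included 8 with a symbol or protein name. Besides the peroxidases and the kinase BGIOSGA034624 they were SNAC1, trehalose-6-phosphate synthases TPS8 and TPS7, a lipoxygenase and a small-subunit ribosomal RNA of bacterial type. SNAC1 (BGIOSGA013814), a NAC transcription factor of drought response in rice, had 28.8 FPKM in KD-labelled, 10.9 FPKM in OE and 3.17 FPKM in WT libraries, and it rose in both of the authors' deposited tables (q = 0.000868 and q = 0.00105). TPS8 (BGIOSGA028759), of the family that makes the sugar signal trehalose 6-phosphate, had 4.46, 1.41 and 0.800 FPKM, and TPS7 (BGIOSGA026976) had 16.3, 8.10 and 5.14 FPKM in KD-labelled, OE and WT libraries. The lipoxygenase BGIOSGA013392, an enzyme that oxidises fatty acids, had 4.06, 1.83 and 1.13 FPKM in the same order. TPS8, TPS7 and this lipoxygenase each rose under the KD label with q = 0.000868 in the authors' deposited tables. In OE, q was 0.129 for TPS8, 0.0306 for TPS7 and 0.141 for the lipoxygenase. A further lipoxygenase, BGIOSGA006958, was instead lower under the KD label, with 2.46 FPKM in KD-labelled, 10.5 FPKM in OE and 15.3 FPKM in WT libraries. The ribosomal RNA locus on chromosome 5 (SSU_RRNA_BACTERIA) had 6.14 and 2.36 FPKM in KD-labelled and OE libraries, below 12.2 FPKM in WT. Another locus of that name, on chromosome 1, had 11.1, 14.5 and 1.88 FPKM in KD-labelled, OE and WT libraries. It was thus above WT in both groups, with a log2 ratio of -0.33. Of 5 loci with small-subunit ribosomal RNA names, 3 had a ratio above 0 and 2 below. Rice chloroplasts and mitochondria carry ribosomal RNA of the bacterial type.

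By GO term, loci higher under the KD label were more frequent than the 3.21% of all loci among those with heme binding (7 of 54), iron ion binding (7 of 42) and transmembrane transport (6 of 52). The same terms also held more lower loci than higher ones, with 16, 14 and 10 of them. Other terms exceeded that share too, and in some the lower and higher counts were equal. Transcription, DNA-templated had 5 of 32 each way, and ATPase activity coupled to transmembrane movement of substances had 3 of 14 each way. Because loci carry several terms, these counts overlap. Some loci without a protein name had wide gaps too, and those that follow were chosen after their values were seen. BGIOSGA004891, a putative transporter by its GO terms on chromosome 1 (41357745 to 41359605), had 26.0 FPKM in KD-labelled, 0.932 FPKM in OE and 1.89 FPKM in WT libraries, and was 29.0-fold higher under the KD label. The authors' deposited tables gave q = 0.000868 for its rise under the KD label and q = 0.0581 for its lower level in OE. BGIOSGA021412, annotated with monooxygenase activity, had 4.72 FPKM in KD-labelled, 0.277 FPKM in OE and 1.30 FPKM in WT libraries, and it rose and fell in the authors' deposited tables (q = 0.000868 and q = 0.0491). In the other direction BGIOSGA013921, annotated with S-adenosylmethionine-dependent methyltransferase activity, had 0.294 FPKM in KD-labelled, 12.3 FPKM in OE and 7.71 FPKM in WT libraries, the lowest log2 ratio of all at -5.33, yet with q = 0.0663 and q = 0.114 in the authors' deposited tables.

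The 8 loci above WT under the KD label and below it in OE with q under 0.05 in both of the authors' deposited tables shared no single annotation. They were BGIOSGA021412, the myosin locus BGIOSGA020267 and 6 others. BGIOSGA008492, annotated with DNA binding, had 10.2 FPKM in KD-labelled, 1.92 FPKM in OE and 5.69 FPKM in WT libraries. BGIOSGA004323, a glycosyl hydrolase of the cell wall by its GO terms, had 5.32 FPKM in KD-labelled, 1.21 FPKM in OE and 2.91 FPKM in WT libraries. BGIOSGA040200, annotated with RNA polymerase activity in the chloroplast, had 8.97, 2.37 and 4.62 FPKM in KD-labelled, OE and WT libraries. The most abundant was BGIOSGA019378, which carries no annotation, at 90.4 FPKM in KD-labelled, 26.1 FPKM in OE and 64.8 FPKM in WT libraries. BGIOSGA005931, annotated with transmembrane transport, had 65.7, 25.8 and 35.2 FPKM, and BGIOSGA030051, with the aspartate kinase activity that starts synthesis of several amino acids, had 16.5, 7.74 and 11.2 FPKM in the same order of groups.

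Over the whole annotation, 182 of the 188 GO terms with at least 10 loci had a median log2 ratio below 0, 10 of them at or below -1, and 6 terms had a median above 0. In 25 terms 0 loci were 2-fold apart. Transport genes (24 of 106 lower, 7 higher), lipid metabolism (18 of 67 and 2) and abscisic acid and water deprivation (8 of 50 and 3) had medians of -0.27, -0.47 and -0.24, all near the median of all loci. The extracellular region list (6 of 19 lower, 2 higher) had a median of -0.75, and the wider lists of peroxidases (6 of 25 and 2) and photosynthesis (21 of 84 and 0) had medians of -0.67 and -0.51. The photorespiration, ribosome, and heat and protein folding lists had 2 lower loci each of 18, 21 and 25, and 0 higher. The ADP binding list had 4 of 32 lower and 2 higher, and the flowering list 4 of 13 lower and 0 higher. Of the 334 loci with a symbol or protein name 98 were 2-fold lower and 8 higher, and of the 1380 without one 329 were lower and 47 higher. Among the 429 loci of lowest WT level 137 were 2-fold lower in the KD-labelled libraries and 27 higher, and among the 429 of highest WT level 95 were lower and 8 higher. Small structural RNAs, 11 loci by name, had a median of -0.01 and 0 of them past 2-fold. Floral and root marker symbols matched 0 of 14 and 0 of 13 in either table, where few loci carry a symbol, so the part of other tissues in these differences was not tested.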

How the data were processed

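RNA was extracted with Trizol from 5-week-old seedlings, and Illumina libraries were made, per the labels' protocols. FPKM values, log2 fold changes, p-values and q-values were computed by the authors and deposited as 2 tables, each of 1 transgenic group against WT, with 1 pooled value per group, per the file headers. Cufflinks 2.2.1 and Cuffdiff were used, per the submitters' processing notes. The sources used here do not give the aligner, genome build or annotation. Coordinates are as the authors' deposited tables give them. The deposited log2 fold change was checked as the log2 ratio of FPKM without a pseudocount, and matched within 0.001 at all 4341 and 4295 loci. The tables hold no counts, so depth is unknown and no interval was computed. As nothing says that libraries came from separate plants, the authors' p-values may measure technical spread.

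Loci were joined by merged transcript identifier with Python 3.11.15 and pandas 2.3.3, and the arithmetic was tested on simulated data. The 31 gene lists were matched to GO terms, protein names and symbols. Loci without a symbol had the nearest transcript's identifier. Named loci were those with the polymerase name, the 8 highest and 8 lowest named ratios with at least 1 FPKM in KD or OE, up to 6 on opposite sides of WT, and up to 3 per list. Further loci, chosen after their values were seen, include single photosystem, tubulin, dehydrogenase, cellulose synthase, peroxidase, silencing and unnamed loci. The members and lists were chosen with earlier results of these data known. No sequences are shown, as no sequence of these loci was used here. Alternatives were another scaling, a pseudocount of 1 FPKM, filters on level and q, centring, other matching and other thresholds.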

Additional observations from a re-analysis of the deposited data

How the results depend on the processing

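The counts of loci at least 2-fold lower and higher in the KD-labelled libraries (427 and 55) were the same with 1 scaling factor and with matching by nearest transcript. These alternatives nearly repeat the main calculation. The division already amounts to 1 scaling factor, and the nearest transcript was the same in both tables at all 1714 loci. The counts stayed within 1.5 times with at least 1 FPKM in KD or OE and without loci of several gene identifiers. They were 268 and 91 after centring on the median of common loci and 179 and 20 with q under 0.05 in both tables. At other thresholds they were 665 and 103 past 1.5-fold, and 110 and 10 past 4-fold. With a pseudocount of 1 FPKM the higher count was 36, against 313 lower. The counts on opposite sides of WT (232 with KD-labelled below, 28 with KD-labelled above) were 66 and 8 with q under 0.05 in both tables, 24 and 4 at 2-fold from WT in both groups, and 93 and 313 with each table centred on its median. The median log2 ratio of the DNA replication list was -1.37 and that of the microtubule list -1.10 with q under 0.05 in both tables, where fewer loci remain. The other 29 list medians moved by less than 1.5-fold under the alternatives run. Centring could not move a list by this measure, as removing the median of -0.33 shifts every locus by less than 1.5-fold. The single scaling factor could hardly do so either. Centring turned the sign of 17 of the 31, those between the median of all loci at -0.33 and 0. The sign turned for 2 lists with q under 0.05 in both tables, of which RNA silencing had 0.51, and for 1 with at least 1 FPKM in KD or OE. A pseudocount moved 33 of the 153 named loci and reversed none. No paired analysis was possible because each table holds 1 pooled value per group, and for the same reason no library could be left out in turn. Depth is unknown, and low FPKM values carry an error that cannot be stated.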
